A study of Mus musculus with 2 samples.

Results

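Macrophages of the sciatic nerve (SN) were described here by 8 integrin genes, taken by name out of the 54838 genes of the count files. They are *Itgam*, *Itgb2*, *Itgb1*, *Itga4*, *Itga6*, *Itgav*, *Itgb5* and *Itgal*, and all 8 were found. The cells were macrophages sorted by CD64 and CD45 out of the SNs of 19 male mice, which were 10 to 12 weeks old. All mice carried Flt3-Cre and LSL-YFP fl/fl, so that a cell whose progenitors had expressed *Flt3* stayed marked by YFP. YFP− and YFP+ macrophages were each sequenced as 1 library of pooled cells, by 10x Chromium 3′ capture with unique molecular identifiers (UMIs), in which 1 UMI stands for 1 captured RNA molecule. The Cre driver acts in blood progenitors of many lineages, so YFP is a mark of a cell's origin and not of what it is. Whether every cell of that origin carried the mark was not tested here. With 1 library per group, no test of YFP was possible, and all intervals in parentheses are 95% intervals of counting error only.

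Integrins are receptors made of 1 α and 1 β chain that tie cells to matrix and to other cells. The β2 chain *Itgb2* pairs with αM (*Itgam*, CD11b) to form Mac-1, which is also complement receptor CR3, and with αL (*Itgal*, CD11a) to form LFA-1. The β1 chain *Itgb1* pairs with α4 (*Itga4*) in the VCAM1 receptor VLA-4 and with α6 (*Itga6*) in a laminin receptor, and αv (*Itgav*) pairs with β5 (*Itgb5*) or β1 and binds vitronectin or other proteins with an RGD motif. Talins and kindlins switch integrins on from inside the cell, and αv integrins can release TGF-β from its latent form.

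The 250 bases before the start of *Itgam* and *Itgb5* are shown because these genes differed in opposite directions in Cd209-high macrophage-like cells, described further on. They are RefSeq sequences of build GRCm38.p6, on the plus strand at chr7:128062390-128062639 for *Itgam* and at chr16:33829415-33829664 for *Itgb5*. Capitals mark GAGGAA, a form of the site bound by the myeloid factor PU.1, or TTCCTC, the same site on the other strand.
Itgam: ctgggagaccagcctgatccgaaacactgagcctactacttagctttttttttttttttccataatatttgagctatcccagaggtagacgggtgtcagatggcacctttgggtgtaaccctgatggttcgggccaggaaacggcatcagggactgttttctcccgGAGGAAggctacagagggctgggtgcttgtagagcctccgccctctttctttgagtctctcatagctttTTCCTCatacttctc
Itgb5: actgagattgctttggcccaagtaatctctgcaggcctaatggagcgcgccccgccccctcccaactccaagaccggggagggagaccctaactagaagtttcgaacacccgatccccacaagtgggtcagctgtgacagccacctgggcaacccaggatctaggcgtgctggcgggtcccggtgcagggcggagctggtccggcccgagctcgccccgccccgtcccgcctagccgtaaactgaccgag
The *Itgam* window held 2 matches and the *Itgb5* window 0. Of the other members with a window, *Itgav* held 2 matches, *Itgb1* 1 and *Itga4* 0. A match was found in 23.3% of all 32851 windows, and these letters are a description only. The *Itgb5* window held 18 CpG dinucleotides and the *Itgam* window 6, which is also the median of all windows. *Itga6*, *Itgb2* and *Itgal* were not matched.

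By the GENCODE M21 annotation of GRCm38, *Itgam* lies at chr7:128062640-128118491 and *Itgb5* at chr16:33829665-33949338, both as protein-coding genes on the plus strand. *Itgam* shares its strand with the overlapping gene *Gm49368*, and *Itga6* with *Gm13663* and *Gm13662*, so the assignment of their reads is less certain. The other members overlap no gene on their own strand.

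Cells were barcodes with at least 500 UMIs and 200 genes, which gave 1045 YFP− and 4053 YFP+ cells, with 7 barcodes shared. The median depth was 2233 UMIs per YFP− cell and 1484 per YFP+ cell, and the cells held 2418044 and 6747554 UMIs in total. All 10 macrophage markers were found in both libraries, with summed levels of 20103 and 20152 UMIs per 1000000 (CPM). Summed Schwann cell markers came to 702 and 640 CPM, and mural cell markers, of pericytes and smooth muscle, to 8.7 CPM for YFP− and 117 CPM for YFP+ cells. Levels are CPM and were not divided by gene length, since each molecule was counted once near its 3′ end. Capture can differ between genes.

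*Itgb1* was the highest member in both libraries, with 168 CPM (152–185) in the YFP− macrophages and 169 CPM (159–179) in the YFP+ ones. *Itgb5* came next, at 116 CPM (103–131) and 102 CPM (94.5–110). The pair that forms CR3 followed at nearly equal levels. *Itgam* had 64.9 CPM (55.2–75.9) in YFP− and 74.7 CPM (68.3–81.5) in YFP+ macrophages, and *Itgb2* had 63.7 CPM (54.0–74.6) and 73.8 CPM (67.5–80.6). *Itga4* was at 50.9 CPM (42.3–60.7) and 59.3 CPM (53.6–65.4), and *Itga6* at 34.7 CPM (27.7–43.0) and 38.5 CPM (34.0–43.5). *Itgav* was lower still, at 12.4 CPM (8.37–17.7) and 22.4 CPM (19.0–26.2). The β chains *Itgb1* and *Itgb5* were thus each above every α chain measured. The order of the 8 genes was the same in both libraries. The intervals of *Itgam* and *Itgb2* overlapped in both libraries, and those of *Itgb2* and *Itga4* and of *Itga4* and *Itga6* overlapped in the YFP− library alone.

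*Itgal*, the α chain of LFA-1, had 0 UMIs in the YFP− library and 8 UMIs, or 1.19 CPM (0.512–2.34), in the YFP+ library. The lowest level that 3 UMIs could give was 1.24 CPM in YFP− and 0.445 CPM in YFP+ macrophages, so no ratio was taken. No *Itgal* UMI in 1045 YFP− cells allows a share of cells with a UMI of up to 0.287% by the limit of 3 UMIs, and the exact binomial interval ends at 0.352%.

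The same genes were measured in barcodes with 10 to 100 UMIs, which were taken to hold RNA free in the suspension. In the YFP− library *Itgb5* was at 68.2 CPM (52.3–87.4) there, below its level in cells, and *Itgav* at 33.0 CPM (22.3–47.1), above it. In the YFP+ library the 2 genes had 86.5 CPM (74.2–100) and 27.5 CPM (20.8–35.7), and these intervals overlapped those of the cells. *Itgb1*, *Itgam*, *Itgb2*, *Itga4* and *Itga6* had overlapping intervals in cells and in these barcodes in both libraries.

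**Figure D1:**
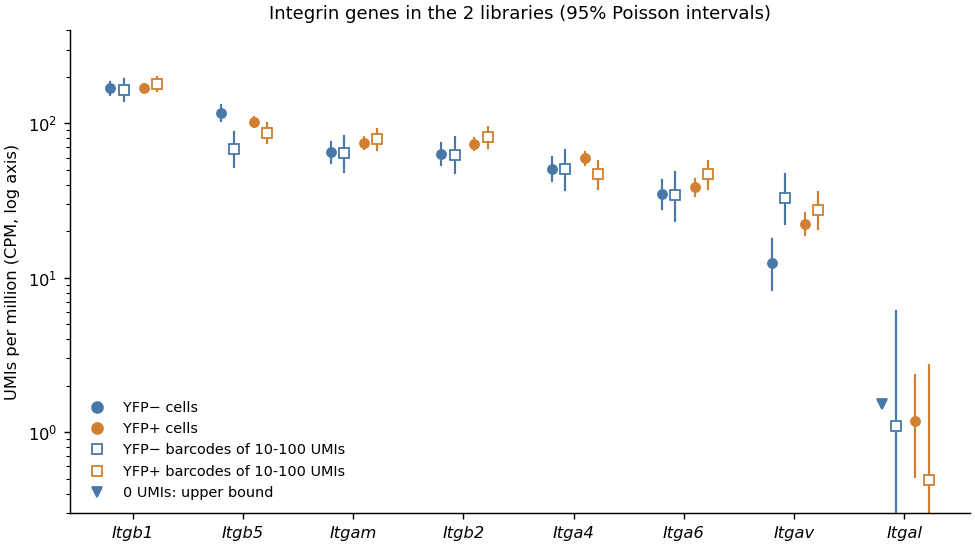
Levels of the 8 integrin genes (CPM, log axis) in YFP− and YFP+ cells (filled circles) and in barcodes with 10 to 100 UMIs (open squares), with 95% Poisson intervals; the triangle is the upper bound for a gene with 0 UMIs. *Itgb1* is highest at 168 and 169 CPM, the order of the genes is the same in both libraries, and *Itgav* in YFP− cells lies below the low-UMI barcodes.

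A gene was compared between the libraries if its mean level was at least 20 CPM, and called if its ratio was 1.5-fold or more, on CPM + 1, with an interval that left out 0 on the log2 scale. Of the 6 members that could be compared, 0 were called higher and 0 lower in YFP+ macrophages. Among all 5531 genes, 1.54% were called higher and 5.77% lower. On the log2 scale, YFP+ over YFP− gave 0.01 (−0.15 to 0.17) for *Itgb1*, 0.20 (−0.06 to 0.46) for *Itgam* and 0.21 (−0.05 to 0.48) for *Itgb2*. For *Itga4* the log2 ratio was 0.22 (−0.07 to 0.51), for *Itga6* 0.15 (−0.21 to 0.51) and for *Itgb5* −0.19 (−0.39 to 0.02). All 6 intervals hold 0, and in this setting all lie within 1.5-fold either way. After thinning each cell to 500 UMIs all 6 still held 0, but some reached past 1.5-fold, as for *Itga6* (log2 ratio −0.50, −1.13 to 0.16).

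*Itgav* was under the minimum, with a mean of 17.4 CPM. Its log2 ratio was 0.80 (0.26 to 1.37), from 30 UMIs in YFP− and 151 UMIs in YFP+ macrophages. Without mural-like cells it was 0.83 (0.28 to 1.42), and after thinning each cell to 500 UMIs 0.32 (−0.69 to 1.45). Thinning left an *Itgav* UMI in only 8 YFP− and 44 YFP+ cells. With equal weight per cell, which discards no counts, the log2 ratio was 0.60, without an interval. The depth per cell differed between the libraries as given above, and its part in this ratio was not tested further.

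The share of cells with a UMI was taken after thinning each cell to 500 UMIs. *Itgb1* was seen in 9.09% (7.42–11) of YFP− and 8.27% (7.44–9.16) of YFP+ cells, *Itgb5* in 6.60% (5.17–8.28) and 5.48% (4.80–6.22), and *Itgam* in 3.25% (2.26–4.52) and 3.68% (3.12–4.30). Without thinning these shares were 30.3% and 23.4% for *Itgb1*, 20.8% and 15.1% for *Itgb5*, and 12.7% and 11.1% for *Itgam*. Thinned shares in YFP− and YFP+ cells were 3.73% and 3.75% for *Itgb2*, 2.78% and 2.74% for *Itga4*, and 0.766% and 1.09% for *Itgav*. *Itga6* had 2.58% (1.71–3.74) and 1.80% (1.41–2.26), in the other direction from its CPM ratio, with overlapping intervals. If all 500 UMIs of a cell were free RNA, 3.14% of YFP− and 3.88% of YFP+ cells would hold an *Itgam* UMI, and 7.86% and 8.60% an *Itgb1* UMI. The shares of both genes over all cells were therefore not distinguishable from this background. The barcodes behind it came from the same suspension, so a gene made by most of these macrophages would give similar shares. The comparison cannot tell RNA made by the cells from free RNA. For *Itgb5* the free-RNA share came to 3.35% and 4.23%, below the intervals of the cells, which leaves out the counting error of the barcodes. In the YFP+ library the *Itgb5* levels of cells and barcodes had overlapping intervals. For *Itgav* the free-RNA share was 1.64% and 1.37%, above the shares in cells, but 1.37% lay inside the interval of YFP+ cells (0.790–1.45). Among mural-like cells, 1.94% (0.236–6.84) of 103 cells held an *Itgam* UMI, at an unthinned median of 982 UMIs. Mural cells should lack *Itgam*, but this group also held macrophage RNA and is no clean measure of background.

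Of 18 further α and β subunits, 0 reached a mean of 20 CPM, 10 were under 3 UMIs in both libraries and 4 had 0 UMIs in both. The highest were *Itga9*, at 15.3 CPM (10.8–21.1) and 14.2 CPM (11.5–17.4) in YFP− and YFP+ macrophages, with an interval that overlapped that of *Itgav* in the YFP− library, the α5 chain of the fibronectin receptor *Itga5* at 7.44 and 7.11 CPM, and *Itga8* at 3.72 and 5.78 CPM. *Itgax*, the CD11c chain that also pairs with β2, had 1 and 2 UMIs.

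Of 28 activators and adaptors, 20 could be compared, and 0 were called higher and 1 lower in YFP+ macrophages. Among all genes compared, 1.54% were called higher and 5.77% lower. The median log2 ratio was 0.01 beside −0.002 over all genes. *Dab2*, an endocytic adaptor of integrins, had 781 and 685 CPM, the GTPase *Rap1b* 361 and 387 CPM, and *Rap1a* 178 and 208 CPM. The called gene was *Tln2* (talin 2), with 34.3 CPM in YFP− and 21.8 CPM in YFP+ macrophages (log2 ratio −0.63, −1.02 to −0.24), while *Tln1* (talin 1) had 167 and 203 CPM (log2 ratio 0.28, 0.12 to 0.44).

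Of 28 ligand genes, 5 could be compared, and 2 were called lower and 0 higher in YFP+ macrophages, where 5.77% of all genes were lower and 1.54% higher. *Vcam1*, the ligand of VLA-4, had 60.0 CPM in YFP− and 31.1 CPM in YFP+ macrophages (log2 ratio −0.92, −1.23 to −0.62). *Cyr61*, a matrix protein that binds several integrins, had 126 and 76.0 CPM (log2 ratio −0.72, −0.93 to −0.52). Both genes were among the leading genes of cluster 1, to which 321 of 1045 YFP− cells and 639 of 4053 YFP+ cells belonged. In barcodes with 10 to 100 UMIs *Vcam1* had 72.6 and 39.8 CPM and *Cyr61* 117 and 77.2 CPM in the YFP− and YFP+ libraries. The part of either in the ratios was not tested. *Tgfbi*, a secreted integrin ligand, was the highest of the list at 337 and 348 CPM. Of 10 genes of TGF-β release and its receptors, 4 could be compared, and 1 was called higher and 0 lower, beside the same 1.54% and 5.77% of all genes. *Tgfbr1*, the type I receptor, was higher in YFP+ macrophages, at 92.5 CPM against 60.0 CPM (log2 ratio 0.62, 0.36 to 0.88). *Tgfb1* had 178 and 143 CPM, *Nrros*, which anchors latent TGF-β1 on macrophages, 174 and 146 CPM, and *Tgfbr2* 121 and 99.0 CPM, with ratios under 1.5-fold.

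**Figure D2:**
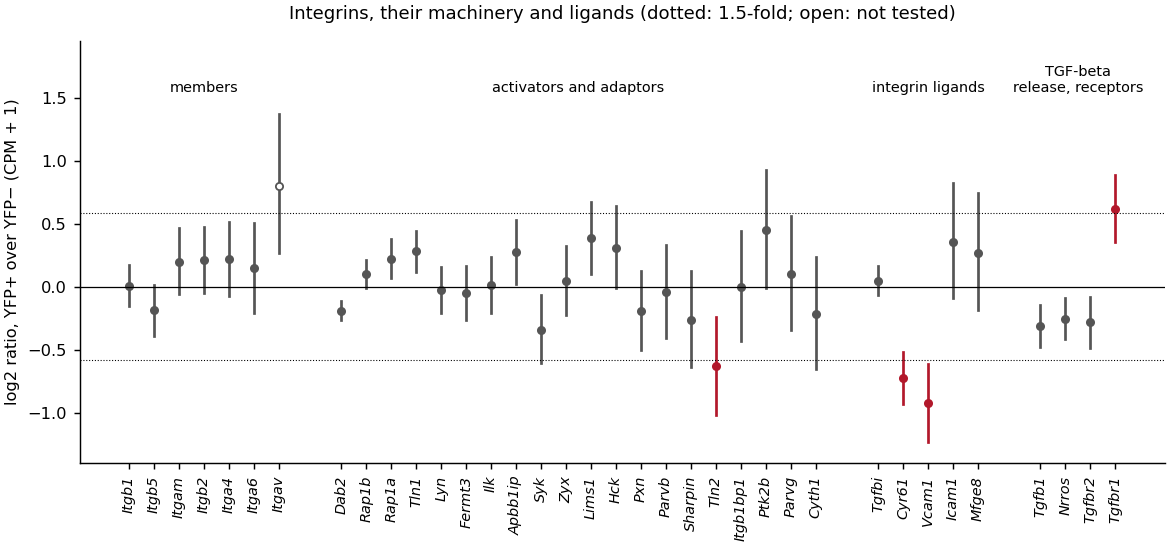
Log2 ratio of YFP+ over YFP− macrophages (on CPM + 1) with 95% intervals for 7 members and for the genes of 3 lists with a mean of at least 20 CPM; dotted lines mark 1.5-fold, red marks called genes, and the open circle is *Itgav*, which was under the minimum. The 6 filled members lie between −0.19 and 0.22, while *Tln2*, *Cyr61* and *Vcam1* are called lower and *Tgfbr1* higher.

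All cells were clustered together, without any gene of the integrin lists, into 10 clusters, and 6 of these were named from fixed markers. Since the members took no part in the clustering, their levels can be described by cluster, but cells of 1 library are not replicates and no test was made. Cluster 3 was named from immediate-early and heat-shock markers and was also led by the inflammatory genes *Il1b*, *Cxcl2* and *Ccl4*. Outside the interferon-responding-like, Cd209-high macrophage-like, mural-like and cycling-like cells, the members ranged as follows over the other 6 clusters. *Itgam* was from 57.3 to 81.2 CPM, *Itgb2* from 55.5 to 83.3 CPM, *Itgb1* from 136 to 203 CPM and *Itgb5* from 86.3 to 132 CPM. *Itga4* ranged from 47.7 to 71.4 CPM, *Itga6* from 27.9 to 45.6 CPM and *Itgav*, the most variable by fold, from 11.5 to 27.0 CPM.

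**Figure D3:**
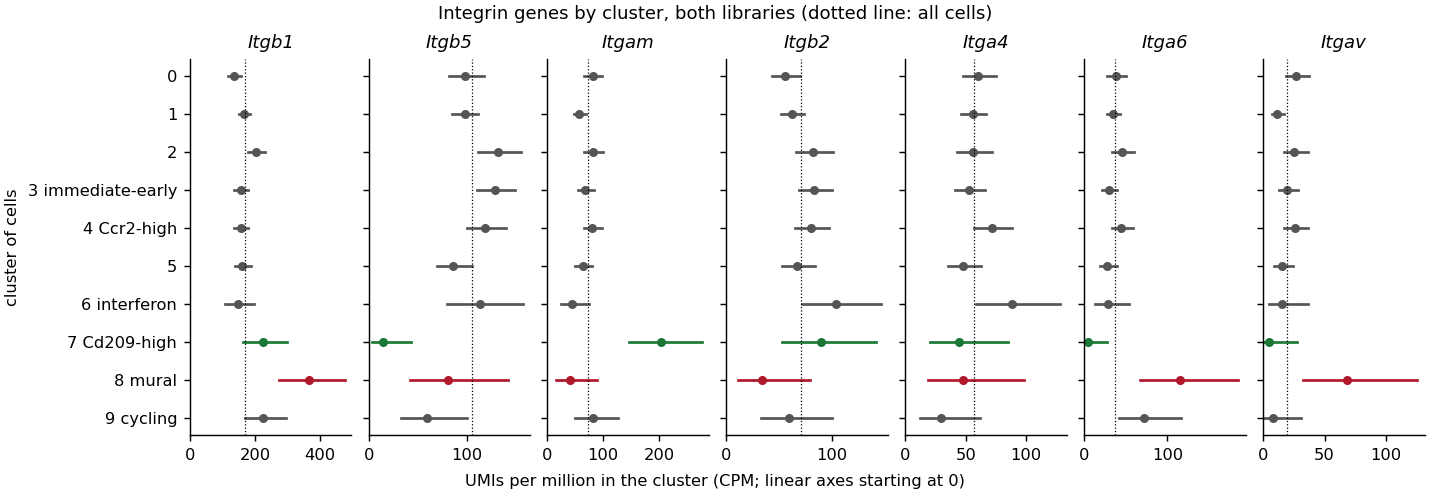
Level of 7 integrin genes (CPM, linear axes from 0) in each of the 10 clusters, both libraries together, with 95% Poisson intervals; the dotted line is the level over all cells. Cd209-high macrophage-like cells (green) stand out by 204 CPM of *Itgam* and 15 CPM of *Itgb5*, and mural-like cells (red) by 367 CPM of *Itgb1* and 115 CPM of *Itga6*.

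Cd209-high macrophage-like cells differed from the remaining cells in *Itgam*, *Itgb5* and *Itga6*. They were 135 cells, 48 YFP− and 87 YFP+, with a median of 1217 UMIs, led by the C-type lectin genes *Cd209g*, *Cd209f* and *Cd209d* and by *Fcna*. *Itgam* was at 204 CPM (147–277) against 69.2 CPM in the remaining cells, which is a log2 ratio of 1.55 (1.06 to 2.0). It was higher in each library, at 149 CPM against 62.3 CPM in YFP− and 236 CPM against 71.6 CPM in YFP+ macrophages. After thinning, 17.0% (11.1–24.5) of these cells held an *Itgam* UMI, and 26.7% did without thinning. The interval lies above the 3.14% and 3.88% that free RNA alone would give in the libraries.

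Its partner *Itgb2* was not called, with 89.7 CPM (53.2–142) against 70.7 CPM and a log2 ratio of 0.34 (−0.41 to 1.01). *Itgb5* was nearly missing from Cd209-high macrophage-like cells, with 3 UMIs or 15 CPM (3.08–43.7) against 108 CPM in the remaining cells (log2 ratio −2.77, −4.74 to −1.28). Its 1 UMI in the YFP− and 2 UMIs in the YFP+ cells gave 13.6 CPM against 119 CPM and 15.7 CPM against 104 CPM. *Itga6* had 1 UMI in them, or 4.98 CPM against 38.3 CPM (log2 ratio −2.71, −5.13 to −0.44), and *Itgav* also 1 UMI. *Itgb1* was at 224 CPM (164–300) against 167 CPM, and *Itga4* at 44.9 CPM (20.5–85.2) against 57.3 CPM.

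Of the 6 members compared, 1 was thus called higher and 2 lower in Cd209-high macrophage-like cells, where 10.3% of all genes were higher and 7.09% lower. *Itgam* and *Itgb5* were also called in each library alone, while *Itga6* was not, and *Itgb1* was called higher in YFP+ cells alone. With the cells instead taken as the 573 with at least 3 UMIs of the 6 markers, 0 members were called and *Itgam* had a log2 ratio of 0.25 (−0.04 to 0.53). Of these 573 cells, 70 were in the cluster, and 295 lay at the threshold with exactly 3 UMIs. One of those markers, *Cbr2*, was also abundant in the other cells, at 462 CPM against 683 CPM in the cluster. A UMI of *Cd209b*, *Cd209d*, *Cd209f* or *Cd209g* was held by 238 cells, 89 of them in the cluster. With these 238 cells *Itgam* was called higher, with a log2 ratio of 0.67 (0.24 to 1.07), and *Itgb5* was at −0.54 (−1.06 to −0.05), short of 1.5-fold. The share of all genes called was not counted for either definition, and most cells of both lay outside the cluster. *Itgam* is also a gene of neutrophils and monocytes. Of 6 neutrophil markers, 2 had UMIs in the cluster, with a summed level of 693 CPM. *Mmp9* was at 668 CPM against 99.1 CPM in the remaining cells, and *Csf3r* at 24.9 CPM against 12.7 CPM. *S100a8*, *S100a9*, *Retnlg* and *Ly6g* had 0 UMIs in the cluster and in the remaining cells alike, so their absence does not set the cluster apart. All 5 monocyte markers had 0 UMIs there, and at most 2 UMIs each in the remaining cells. The 5 markers of Ccr2-high macrophages had a summed level of 6319 CPM in the cluster named from them. It was 7011 CPM in mural-like cells, 4383 CPM in cycling-like cells and from 2053 to 2899 CPM in the clusters not yet named here. In Cd209-high macrophage-like cells it was 5313 CPM, and the source of this RNA was not tested. All 10 macrophage markers had UMIs there, with a summed level of 17570 CPM, in a range of 17076 to 22344 CPM over the clusters other than the mural-like one. Among them *Csf1r*, the macrophage growth factor receptor, was at 1416 CPM against 893 CPM in the remaining cells, and *Mrc1* at 1381 CPM against 911 CPM. *Fcgr1*, which encodes the sort marker CD64, was at 44.9 CPM against 112 CPM, *Cx3cr1* at 59.8 CPM against 326 CPM, *Cd14* at 194 CPM against 576 CPM, and the 3 *C1q* genes were lower too.

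**Figure D4:**
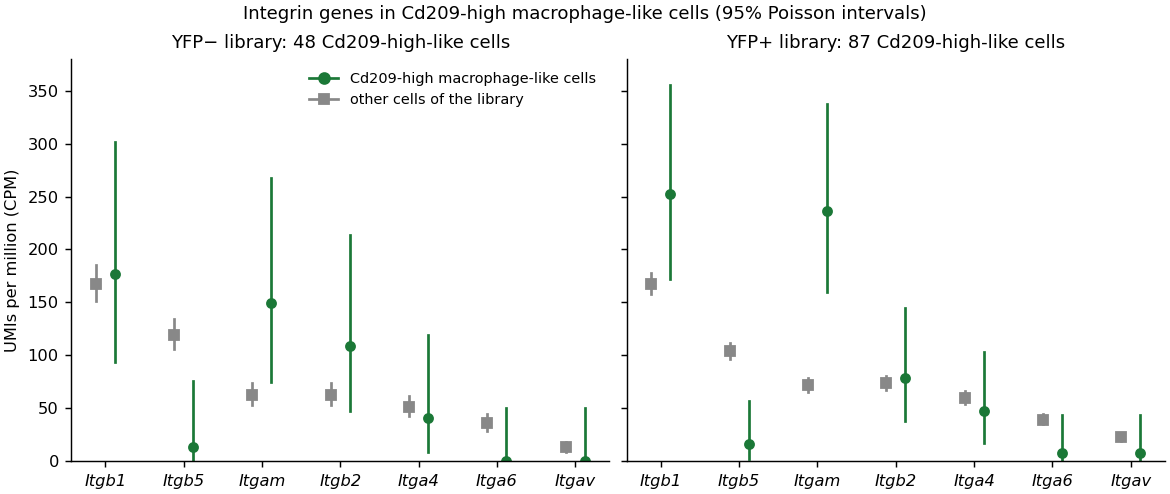
Levels of 7 integrin genes (CPM) in Cd209-high macrophage-like cells (green circles) and in the other cells of the same library (grey squares), with 95% Poisson intervals, for the YFP− (left) and YFP+ library (right). In both libraries *Itgam* is higher, at 149 and 236 CPM, and *Itgb5* lower, at 13.6 and 15.7 CPM, than in the other cells.

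Mural-like cells were 103 cells, 13 YFP− and 90 YFP+, led by the smooth muscle genes *Myl9* and *Myh11*. Their summed mural markers came to 5043 CPM, and their summed Schwann cell markers to 21305 CPM, against at most 370.5 CPM in each other cluster, so Schwann cell RNA exceeded mural RNA. Fibroblast markers were summed to 3509 CPM, endothelial markers to 305 CPM and macrophage markers to 9068 CPM. The integrin levels of this group therefore cannot be assigned to mural cells. *Itgb1* was at 367 CPM (275–478) against 165 CPM in the remaining cells (log2 ratio 1.14, 0.72 to 1.53), and the laminin receptor chain *Itga6* at 115 CPM (67.2–185) against 36.3 CPM (log2 ratio 1.64, 0.86 to 2.34). Thus 2 of 6 members were higher and 0 lower, where 9.73% of all genes were higher and 10.1% lower. *Itgav*, under the minimum for a call, was at 67.9 CPM (32.5–125) against 19.0 CPM. The leukocyte chains *Itgam*, at 40.7 CPM (14.9–88.6), and *Itgb2*, at 33.9 CPM (11–79.2), had their lowest levels of all clusters there, with intervals that overlapped those of other clusters. In the 13 YFP− cells alone 0 members were called. Over 6 alternatives of clustering or library, the interval of *Itga6* held 0 in 3, with a lowest log2 ratio of 0.89. That of *Itgb1* held 0 in 1.

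Cycling-like cells, 72 cells with mitotic genes, had a median of 3100 UMIs. *Itga6* was at 72.5 CPM (42.2–116) against 36.6 CPM in the remaining cells (log2 ratio 0.97, 0.18 to 1.66) and *Itgb5* at 59.7 CPM (32.6–100) against 107 CPM (log2 ratio −0.83, −1.69 to −0.09). These were 2 of 6 members, where 18% of all genes were called in either direction, and neither was called in both libraries alone. The 172 interferon-responding-like cells had 1 call, for *Itga4*, at 88.4 CPM (58.7–128) against 55.9 CPM (log2 ratio 0.65, 0.05 to 1.19), where 7.67% of all genes were called. *Itga4* was called in neither library alone and in none of the other clusterings that named the group, and in the YFP− library alone *Itgam* was called lower, from 1 UMI. Ccr2-high macrophage-like cells (561 cells) and immediate-early and heat-shock-like cells (639 cells) had 0 members called, where 7.68% and 10.6% of all genes were called. Short of 1.5-fold, intervals left out 0 for *Itga4* in the former (log2 ratio 0.37, 0.03 to 0.71) and *Itgb5* in the latter (0.35, 0.11 to 0.58). The same held for *Itgb2* in interferon-responding-like cells (0.57, 0.02 to 1.07) and *Itgb1* in cycling-like cells (0.43, 0.01 to 0.83).

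Within clusters, nearly every interval of the log2 ratio of YFP+ over YFP− held 0. *Itgav* was higher in YFP+ cells in 8 of 10 clusters, of which the interferon-responding-like, Cd209-high macrophage-like and cycling-like cells had 0 *Itgav* UMIs in the YFP− library. Its interval left out 0 in 0 clusters. For the other members, 1 interval each of *Itgb1*, *Itga6* and *Itgb5* left out 0. *Itgb1* was lower in YFP+ cells of cluster 2, at 184 CPM against 258 CPM. *Itga6* was higher in YFP+ Ccr2-high macrophage-like cells, at 50.7 CPM against 11.2 CPM from 2 UMIs, and *Itgb5* was lower in YFP+ mural-like cells, at 54.8 CPM against 254 CPM from 5 UMIs. In Cd209-high macrophage-like cells the log2 ratio of *Itgam* was 0.66 (−0.37 to 1.79).

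Over single cells thinned to 500 UMIs, the variance of UMIs divided by their mean was between 0.973 and 1.21 for the members in the YFP− library and between 0.977 and 1.06 in the YFP+ library, near the medians of 1.02 and 1.01 over the genes compared. A ratio of 1 is what counting alone gives. With means of at most 0.101 UMIs per cell, it can stay near 1 even where groups of cells differ. *Itgam* had a ratio of 0.977 in the YFP+ library, although it was higher in Cd209-high macrophage-like cells of that library. No cell had more than 8 UMIs of a member, and that cell held *Itgb1*. Cells with the α chain of a known pair were compared with cells without it for a UMI of the β chain. In cells thinned to 1000 UMIs, 11 of 185 YFP+ cells with *Itgam* also held *Itgb2*, or 5.95% (3.01–10.4), against 6.82% (5.89–7.84) of the cells without *Itgam*. *Itga6* was accompanied by *Itgb1* in 21.7% (14.3–30.8) of YFP+ cells, against 14.0% (12.8–15.4) of cells without *Itga6*. In the YFP− library these pairs had 1 and 4 cells with both chains. All intervals with and without the α chain overlapped.

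The genes whose counts over cells were most like a member were found by the lower of the Pearson correlations in the 1045 YFP− and 4053 YFP+ cells, among 5525 genes. For *Itgam* they were *Retnla*, a secreted protein of alternatively activated macrophages, with r = 0.13 and 0.07, and *Ly6e* with r = 0.07 and 0.06. *Itga6* was most like *Dcn*, a fibroblast proteoglycan, with r = 0.07 and 0.11, and *Itgb5* was most like *Rspry1*, with r = 0.11 and 0.06. All of these correlations are weak, share the library and its depth, and describe sparse counts.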

How the data were processed

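The deposited files hold raw UMI counts per gene and barcode for 2 libraries, made by the authors from 10x v2 reads mapped to GRCm38 and not normalized. The submitters' processing notes name Cell Ranger 3.0.2 and Seurat 2.2.0, and the annotation release is not given in the sources used here. Bulk libraries are not analysed here. Cells had at least 500 UMIs and 200 genes. Doublets were kept and no caller was run. Levels are CPM of summed counts with exact Poisson intervals, and shares have exact binomial (Clopper-Pearson) intervals after thinning to 500 UMIs. Log2 ratios use a pseudocount of 1 CPM, with exact conditional binomial intervals, and the scripts were tested on simulated data. The intervals are 95% intervals. Free RNA was taken from barcodes with 10 to 100 UMIs.

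Clusters (Leiden, 2000 variable genes, 20 principal components, 20 neighbours, resolution 0.8) left out the integrin lists. A name needed at least 2 markers of its list among the 10 leading genes, and 3 markers with at least 10 UMIs each; these limits were chosen once the clusters were known. The members and lists were chosen with earlier results of these data known. Genes named are the members, the 3 highest genes of each of the other integrin lists with those past 1.5-fold, and, for selected members, genes most alike over cells; *Tln1*, *Itgax*, *Cbr2*, *Mmp9* and the marker genes of clusters and cell types were named after their values were seen. Alternatives changed the calling of cells, weights, thinning, pseudocount, centring, free RNA, filters and clustering. Python 3.11.15, numpy 2.4.6, scipy 1.17.1, pandas 2.3.3, scanpy 1.11.5, anndata 0.12.19, igraph 0.11.9, scikit-learn 1.9.0 and matplotlib 3.10.9 were used.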

Additional observations from a re-analysis of the deposited data

Results flagged for a closer look

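Barcodes with more than 100 and fewer than 500 UMIs, which were used in no comparison, held 63 UMIs of the 8 integrin genes in 387 YFP− barcodes and 278 UMIs in 1816 YFP+ barcodes, above the 3 UMIs taken as the floor. The summed level was 709 CPM in these YFP− barcodes and 660 CPM in these YFP+ barcodes, against 511 and 541 CPM in cells.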

How the results depend on the processing

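No paired analysis was possible because each group is 1 library without replicates. The number of members called between YFP+ and YFP− macrophages went from 0 to 1 with no filter on low values and with equal weight per cell, where no interval applies; both calls were *Itgav*. The log2 ratio of *Itgb1* moved from 0.01 to −0.19 with equal weight per cell and to −0.24 after thinning to 500 UMIs, and that of *Itga6* to −0.50 after thinning. Intervals of *Itgam*, *Itgb1*, *Itga4* and *Itga6* held 0 in all 12 settings that gave an interval, the main one included. Those of *Itgb2* and *Itgb5* each held 0 in 11 of these. Interferon-responding-like cells went from 1 to 0 calls at resolution 1.2, with 10 principal components and in the YFP+ library alone, and with 1000 variable genes the 1 call was *Itga6* lower. Mural-like cells went from 2 to 1 at resolutions 0.4 and 1.2 and to 0 in the YFP− library alone. Cycling-like cells went from 2 to 1 with 1000 variable genes and in each library alone, where *Itgb5* reversed to 0.15 in the YFP− library. Chosen after seeing the data, 2 definitions of Cd209-high macrophage-like cells by marker UMIs gave 0 and 1 instead of 3 calls. Most cells so defined lay outside the cluster. Causes were not tested. No interferon-responding-like cells were named at resolution 0.4, and no immediate-early and heat-shock-like cells at resolution 1.2 or with 10 principal components. Of the thinned shares, 12 of 16 moved at 300 UMIs, as they follow the depth. Ratios of *Itgal* were not taken at 0 UMIs. Depth limits members at 1 to 3 UMIs in small groups.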

Other observations

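4 clusters received no name, and integrin levels in them are given as values. With both libraries together no member was called in any of them. The genes given are those whose interval left out 0. In cluster 1, led by *Gpx3*, *Tcim* and *Cyr61* (960 cells), *Itgav* was at 11.5 CPM (7.47–17.0) against 22.3 CPM in the remaining cells (log2 ratio −0.89, −1.50 to −0.32), and *Itgam* at 57.3 CPM (47.6–68.3) against 76.7 CPM (log2 ratio −0.42, −0.70 to −0.14). In cluster 2, led by *Snhg20* and *Fcgr4* (825 cells), *Itgb1* was at 203 CPM (178–232) against 164 CPM and *Itgb5* at 132 CPM (112–156) against 102 CPM. In the YFP− library alone *Itgb1* of cluster 2 was at 258 CPM against 156 CPM. In the YFP+ library it was at 184 CPM against 167 CPM (log2 ratio 0.14, −0.12 to 0.39). In cluster 0, led by *Fhl3* and *Slc39a1* (1127 cells, 63 of them YFP−, median 947 UMIs), *Itgb2* was at 55.5 CPM (43.5–69.9) against 73.7 CPM and *Itgb1* at 136 CPM (116–157) against 174 CPM. The libraries differed in direction for *Itgb2* of cluster 0. It was at 99.1 CPM against 61.7 CPM in the YFP− library, from 13 UMIs, and at 50.6 CPM against 78.6 CPM in the YFP+ library. In cluster 5, led by *Ccl12* and holding the perivascular macrophage gene *Lyve1* among its leading genes (504 cells), *Itgb5* was at 86.3 CPM (69.9–105) against 108 CPM.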
